A study of Rattus norvegicus with 42 samples.

Results

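GH4C1 cells are an established rat somatolactotroph line, from the pituitary lineage that makes growth hormone and prolactin. The comparison described here was made inside its Neat1 knockout: cultures taken 22 h after a change to fresh medium (T22) were set against cultures taken at 10 h (T10). The members are 6 of the 42 libraries of the series, assigned to their groups by the labels, with 3 knockout (KO) replicates at T10 and 3 at T22. Both groups have the genotype Neat1 -/-, made with CRISPR-Cas9, both were grown in the same serum-containing medium, and no other agent is named. The other 36 libraries are KO cultures from the other 5 times and untreated wild-type (WT) GH4C1 cultures, sampled every 4 h over the same 7 times. The labels do not say whether the KO line is 1 clone, and they do not say whether the replicates came from separate cultures. The p-values therefore measure the spread between these libraries, which may be technical.

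Neat1 is a long non-coding RNA that forms the core of paraspeckles, nuclear bodies that hold RNA-binding proteins and some messenger RNAs. In cells of the pituitary lineage, as in most cell types, a clock of transcription factors and their repressors drives daily changes in the level of many transcripts, and a change of serum or medium is a common way to bring the clocks of a culture into step. With a daily rhythm, cultures taken 12 h apart are at opposite phases, so that a gene that peaks near one of these times differs most between them.

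The deposited tables list 13776 genes by Ensembl identifier alone and do not pair them with symbols, and the RefSeq gene table used here matched 0 of them. Lists of clock, paraspeckle, pituitary and cell cycle genes were therefore not analysed here. The Neat1 level and the markers of the cell line were not checked either, and the labels were used as given. Levels are given as CPM, counts scaled to a common library total, after TMM scaling, which corrects the totals for differences in composition. KO levels were scaled over the 21 KO libraries and WT levels over all 42.

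The 6 libraries held 49049410 to 60482227 counts each, with the ranges of T10 and T22 overlapping. Within a group, the correlation of log2 CPM between replicates was 0.992 to 0.993 over genes, with 163 to 204 genes more than 2-fold apart. The chi-square per degree of freedom between replicates was 8.19 to 11.2, so the libraries differed by more than counting error and each was counted on its own. The first principal component of the 6 libraries held 29.2% of the variance. The T10 libraries lay between -14.4 and -10.1 on it and the T22 libraries between 11.9 and 13.4. The second component, with 21.2%, did not separate the times: T22 replicate 3 lay at -19.1 on it, T22 replicates 1 and 2 at 10.1 and 10.4, and the T10 libraries between -8.17 and 7.16.

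Between T10 and T22 the knockout transcriptome changed in many genes by small amounts. Of 13763 genes tested, 715 (5.20%) were called, which means a Benjamini-Hochberg adjusted p below 0.05 in edgeR's quasi-likelihood test. At T22 318 genes were higher (2.31% of the genes tested) and 397 were lower (2.88%). The median change of the called genes was 1.18-fold among those that rose and 1.22-fold among those that fell (absolute log2 fold changes of 0.24 and 0.28). Estimated changes reached 1.5-fold in 74 called genes (0.538% of the genes tested), 30 that rose and 44 that fell. Only 16 (0.116%) reached 2-fold, 8 in each direction. These are estimates in genes chosen by the test, and when edgeR tested for a change beyond 1.5-fold it called 0 genes. The median absolute log2 fold change was 0.09 over all genes tested and 0.26 over the called genes.

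The number of calls depended on which other libraries set the estimate of spread and on each of the 6 libraries. It was 1443 in a fit of the KO libraries up to T26, 1384 with the 6 libraries alone and 183 with all 42 libraries, and it fell to between 312 and 393 when any 1 of the 6 was left out. Without replicate 1, 2 or 3 of every KO time it was 463, 127 and 70. Scaling by library totals gave 647 calls, of which 62.0% were higher at T22, against 44.5% under TMM.

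**Figure D1:**
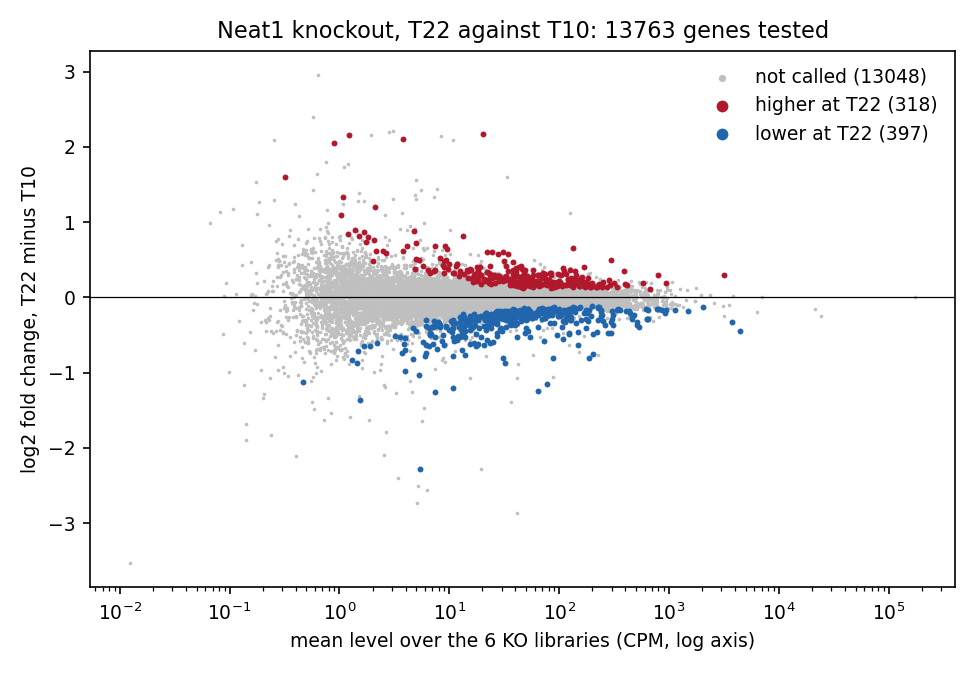
Each point is 1 of 13763 genes, with its mean level over the 6 KO libraries in CPM (log axis) against its log2 fold change at T22 relative to T10; red and blue mark the 318 and 397 genes called higher and lower. Called genes with high levels lie close to 0, and the 16 changes of 2-fold or more are mostly at low levels.

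Calls were more frequent and smaller among abundant genes. When the genes were split into 5 equal classes by mean CPM, 31 genes (1.13%) were called in the lowest class, with levels up to 3.92 CPM, and 232 (8.43%) in the highest, with levels from 71.6 CPM. The median absolute log2 fold change of the called genes was 0.80 in the lowest class and 0.20 in the highest. The lowest class held 9 of the 16 genes with a 2-fold change. Genes that fell outnumbered genes that rose most in the second lowest class, by 76 to 34.

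The 318 genes called higher held 2.52%, 2.56% and 2.48% of the counts in the T10 libraries of replicates 1 to 3, and 3.0% in each T22 library. The 397 genes called lower held 5.18%, 5.0% and 5.10% at T10, and 4.34%, 4.21% and 4.25% at T22. These shares follow from the choice of the genes and are given as a description. The 10 most abundant genes of each library held 24.4% to 26.1% of the counts in the 6 libraries, with overlapping ranges at T10 and T22.

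The called genes were chosen for a small spread within groups relative to the gap between them, so their values by library are a description. The 3 T22 libraries were all above the 3 T10 libraries for 317 of the 318 genes called higher, and all below for the 397 called lower. Over all genes tested, 14.2% had the T22 libraries all above and 15.1% all below, so that 3313 genes whose groups did not overlap were not called by edgeR. In single libraries, the median log2 difference from the T10 mean was 0.24 in each T22 library over the genes called higher, and -0.29, -0.28 and -0.27 in replicates 1, 2 and 3 over those called lower.

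The largest changes were taken from the called genes whose mean reached 2 CPM and whose groups did not overlap, 306 higher and 390 lower at T22. The 12 highest had log2 fold changes of 0.64 to 2.17 and the 12 lowest of -2.28 to -0.80. Only the first 2 in each direction are identified below, by their Ensembl identifiers, and the products of these genes are not described.

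ENSRNOG00000060047 had the largest rise. Its level was 6.41, 7.44 and 8.37 CPM in T10 replicates 1 to 3 and 34, 35 and 31.4 CPM at T22. The T22 libraries were thus all more than 20 CPM above the T10 libraries. The log2 fold change was 2.17 (SE 0.51, adjusted p = 0.0178 by edgeR). At the other times the gene was uneven between replicates of the same group, with 36.1, 11.3 and 8.54 CPM at T14, 8.21, 26.9 and 6.91 CPM at T18 and 9.60, 29.8 and 10.6 CPM at T34. The level was 7.80 to 8.82 CPM at T26 and 10.3 to 13.6 CPM at T30. WT replicates spanned 9.67 to 31.2 CPM at T10 and 10.4 to 24.0 CPM at T22, and the difference between the KO and WT changes was not called (2.14, SE 0.89, adjusted p = 0.183 by edgeR). Single KO libraries of T14, T18 and T34 thus lay near the T22 level while their replicates lay nearer to the T10 level. The call was lost without any 1 of the T10 libraries, without T22 replicate 2 and without replicate 3 of all times, with adjusted p of 0.0507 to 0.151 by edgeR. It was also lost in the fit of all 42 libraries (adjusted p = 0.101), which gave the difference above.

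ENSRNOG00000011078, second in rank among the rises, started from a low level. It had 1.22, 1.5 and 1.55 CPM in the T10 libraries and 3.63, 8.64 and 6.13 CPM at T22, with no overlap but a wide spread at T22. The log2 fold change was 2.10 (SE 0.39, adjusted p = 0.00373 by edgeR). The libraries of T14 lay between 1.73 and 2.13 CPM, and those of T18 at 2.12, 3.53 and 8.38 CPM. At T26 the level was 2.25 to 2.64 CPM, at T30 it was 1.17 to 2.64 CPM, and at T34 it was 1.09 to 1.38 CPM, within or below the range of T10. The T18 and T22 libraries thus held the highest KO values, though T18 replicate 1 was below the 3 libraries of T26. In WT it was 0.945, 1.81 and 1.56 CPM at T10 and 2.12, 0.835 and 0.797 CPM at T22, with overlapping groups, and at T14, T18, T26 and T34, though not T30, every WT library was below every KO library of the same time. The rise was larger in KO than in WT by 2.30 on the log2 scale (SE 0.54, adjusted p = 0.00598 by edgeR's test of the difference). The difference was not called without replicate 2 (1.57, adjusted p = 0.475 by edgeR) or replicate 3 (2.08, adjusted p = 0.175). The adjusted p for T22 against T10 in KO was 0.145 without replicate 2 of all times and 0.0525 without replicate 3.

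ENSRNOG00000019736 had the largest fall. Its level was 8.85, 8.30 and 9.51 CPM in the T10 libraries and 1.2, 2.14 and 2.10 CPM at T22. The log2 fold change was -2.28 (SE 0.59, adjusted p = 0.0273 by edgeR). The gene was at 1.65 to 2.11 CPM in all libraries of T14 and T18, at 1.94, 12.5 and 1.69 CPM at T26 and at 7.06, 6.89 and 1.45 CPM at T30. WT libraries also fell into high and low values, with 1.83, 7.99 and 14.5 CPM at T10 and 1.32 to 2.19 CPM at T22. In both genotypes, then, libraries of 1 time could differ several-fold, and T10 was the only KO time at which all 3 libraries were high. The WT change of -2.19 was not called (adjusted p = 0.0689 by edgeR), and the genotypes differed by -0.09 (SE 1.10, adjusted p = 0.989). Its adjusted p rose above 0.05, to between 0.0588 and 0.139, in 8 of the 9 fits that left out a library or a replicate number. In the fit of all 42 libraries, which gave the WT and difference values, the KO call was lost too (adjusted p = 0.212 by edgeR).

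ENSRNOG00000004554 was second in rank among the falls, with a low level held from T18 to T26. It had 10.9, 9.07 and 11.3 CPM at T10, 4.88, 5.97 and 7.40 CPM at T14, 3.88 to 5.24 CPM at T18, and 3.94, 3.86 and 5.32 CPM at T22. The log2 fold change at T22 was -1.26 (SE 0.27, adjusted p = 0.0103 by edgeR). The level stayed at 3.94 to 4.28 CPM at T26, was 5.18, 17.4 and 12.5 CPM at T30 and reached 31.1, 32.2 and 31.2 CPM at T34, the highest level of the KO course. In WT the level was 5.92, 6.56 and 7.62 CPM at T10 and 4.05, 4.52 and 3.89 CPM at T22, and the groups did not overlap there either. At T34 the WT libraries had 1.79, 3.32 and 3.92 CPM, below each of the KO libraries of that time. The WT change of -0.69 was not called (adjusted p = 0.0839 by edgeR), and the difference between the genotypes was not called (-0.57, SE 0.37, adjusted p = 0.494). The T22 against T10 call in KO was lost without replicate 2 of all times (adjusted p = 0.0880), replicate 3 of all times (0.194), T22 replicate 1 (0.0523) or T22 replicate 2 (0.0553).

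**Figure D2:**
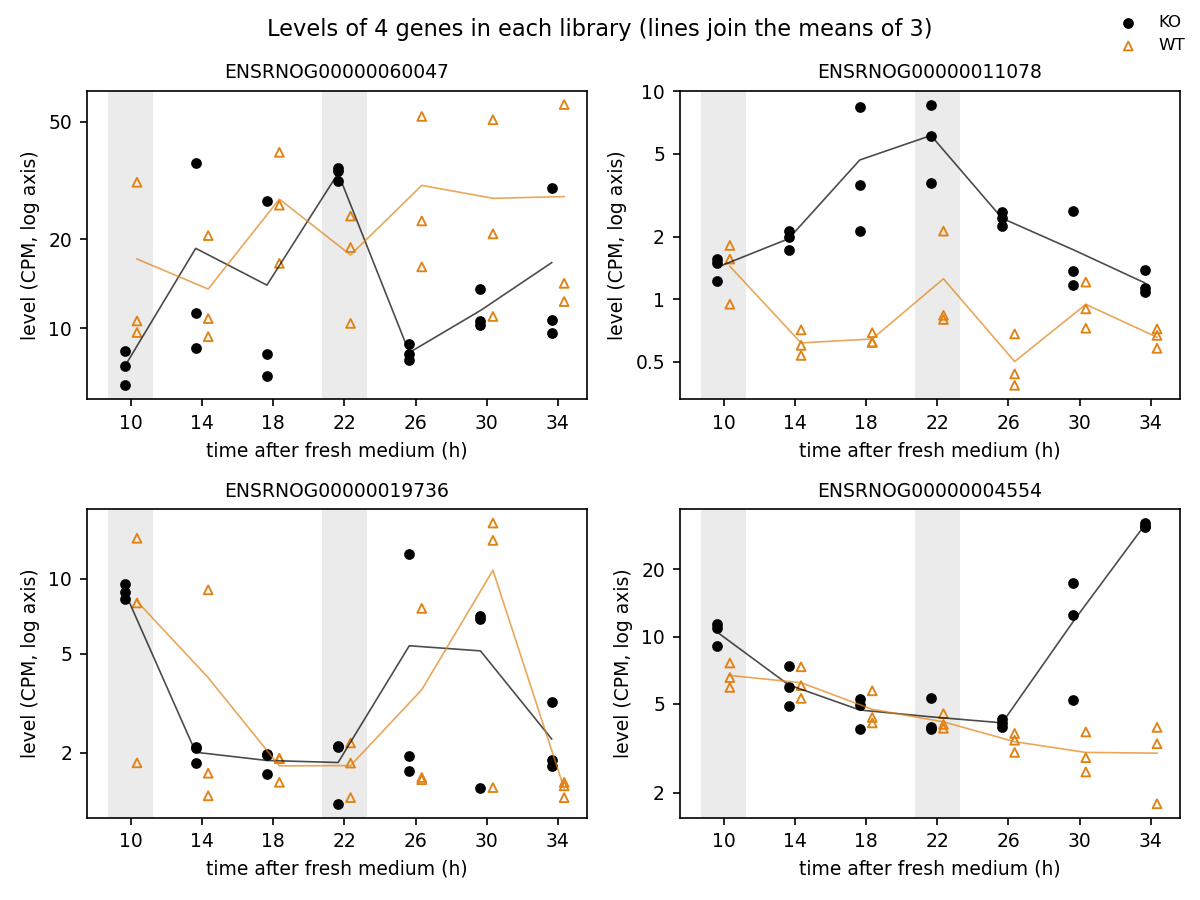
Each panel shows 1 gene, with the level in CPM (log axis) in each library against the hours after fresh medium; filled circles are KO, open triangles WT (scaled with all 42 libraries), lines join the means of 3 libraries, and grey bands mark T10 and T22. ENSRNOG00000060047 and ENSRNOG00000019736 take high or low values in single libraries at other times, ENSRNOG00000011078 has its highest KO values in libraries of T18 and T22, and ENSRNOG00000004554 falls to T22 and reaches 31.1 to 32.2 CPM at T34 in KO.

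Where T10 and T22 lie in the KO course was described next. Relative to T10, the median log2 level of the genes called higher was 0.13 by T14, 0.19 by T18, 0.24 by T22 and 0.26 by T26, then 0.20 by T30 and 0.10 by T34. The genes called lower had -0.14, -0.21, -0.28, -0.28, -0.23 and -0.13 at the same times. These medians share the T10 libraries that chose the genes. The 3 libraries of each time from T14 to T26 lay within 0.02 of each other for the genes called higher. At T30 they spread, with replicate 1 at 0.24 and the other two at 0.17 and 0.20. The genes called lower showed the same order at T30, with -0.27 in replicate 1 against -0.20 and -0.22.

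**Figure D3:**
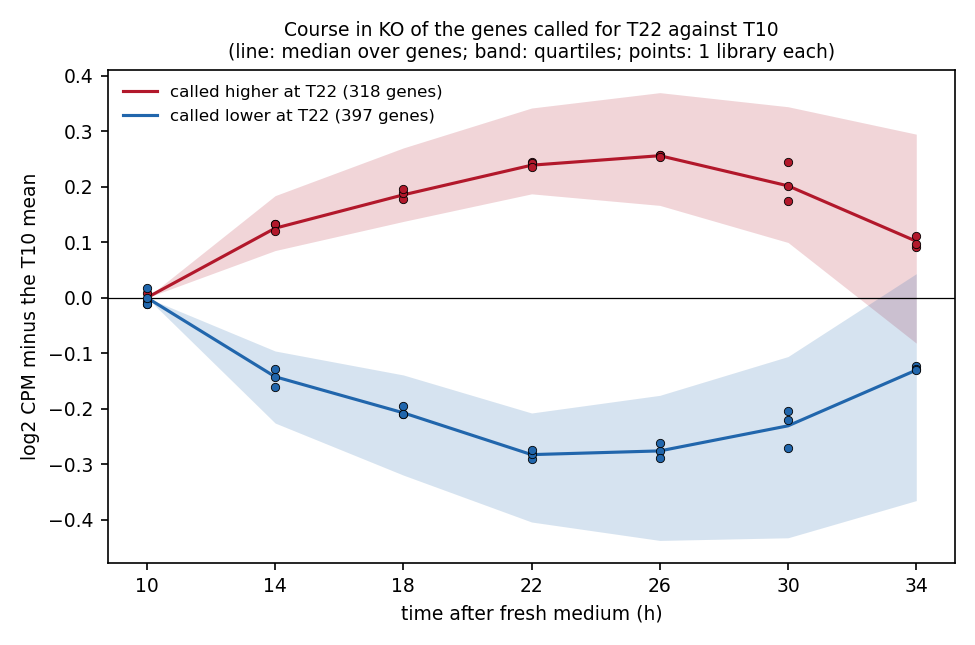
Log2 level in KO relative to the T10 mean against the hours after fresh medium, for the 318 genes called higher (red) and the 397 called lower (blue) at T22; lines are medians over genes, bands the quartiles, and each point is the median in 1 library. Both medians move away from 0 until T22, hold at T26 and lie at 0.10 and -0.13 at T34.

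Steps between other KO times, which share no library with T10 or T22, measured this course in libraries outside the T22 against T10 change. These libraries were not independent of the choice of genes, because they entered the estimate of spread in the fit that called them. Genes are not independent of each other within a library, so shares over genes are descriptions. From T14 to T18, 280 of the 318 genes called higher went up (88.1%) and 330 of the 397 called lower went down (83.1%), while 49.5% of all genes tested went up. The steps were small, with medians of 0.07 and -0.07 on the log2 scale. Taken gene by gene, T18 against T14 was called for 1 gene by edgeR and for 3 by DESeq2, and 551 genes had an unadjusted p under 0.05. In 214 of the genes called higher and 265 of those called lower, the means of T10, T14, T18 and T22 were in 1 unbroken order, a pattern that all genes tested showed upwards in 9.37% and downwards in 9.48%. That order includes the T10 and T22 libraries that chose the genes.

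T26 against T14, also 12 h apart, moved most of these genes in the same direction. It was higher for 267 of the 318 genes called higher at T22 (84.0%) and lower for 326 of the 397 called lower (82.1%), with median log2 fold changes of 0.12 and -0.13. Of the genes called higher at T22, 97 (30.5%) were called higher at T26, against 3.53% of all genes tested, and 1 was called lower. Of the genes called lower at T22, 110 (27.7%) were called lower at T26, against 3.73% of all genes tested, and 3 were called higher. The correlation of the 2 changes was 0.48 over the 715 genes (Spearman 0.70) and 0.20 over all 13763 (Spearman 0.27). The calls of T22 against T10 and of the other KO steps came from the same fit, with the same estimate of spread for each gene. A gene with a small estimated spread was thus more easily called in each of them. Calls of T22 against T10 were also more frequent among abundant genes, so all genes tested are not a matched background for these shares.

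The step from T26 to T34 ran the other way for most of these genes. From T26 to T34, 218 of the 318 genes called higher at T22 went down (68.6%) and 262 of the 397 called lower went up (66.0%). In that step 167 of the genes called higher were called lower at T34 (52.5%, against 26.3% of all genes tested) and 43 were called higher (13.5%, against 26.3%). Of the genes called lower at T22, 183 were called higher at T34 (46.1%) and 69 lower (17.4%). The reversal was not shared by all genes, and in many it went past the T10 level. At T34, 172 of the 318 genes called higher (54.1%) and 202 of the 397 called lower (50.9%) had a mean on the T10 side of the midpoint between T10 and T22. In 110 of those 172 and 127 of those 202 the mean had passed T10 to the other side, as for ENSRNOG00000004554. A separate 105 of the 318 (33.0%) and 128 of the 397 (32.2%) had a T34 mean beyond that of T22. The T10 and T22 means in these counts come from the libraries that chose the genes, so the counts are a description. T30 against T18 was close to evenly split by sign, with 172 of the 318 genes up (54.1%) and 205 of the 397 down (51.6%). Its calls were more often in the direction of T22 than against it. Of the genes called higher at T22, 24.5% were called higher and 18.2% lower in that step, and of those called lower 27.0% were called lower and 16.4% higher, against 18.7% higher and 17.7% lower over all genes tested.

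**Figure D4:**
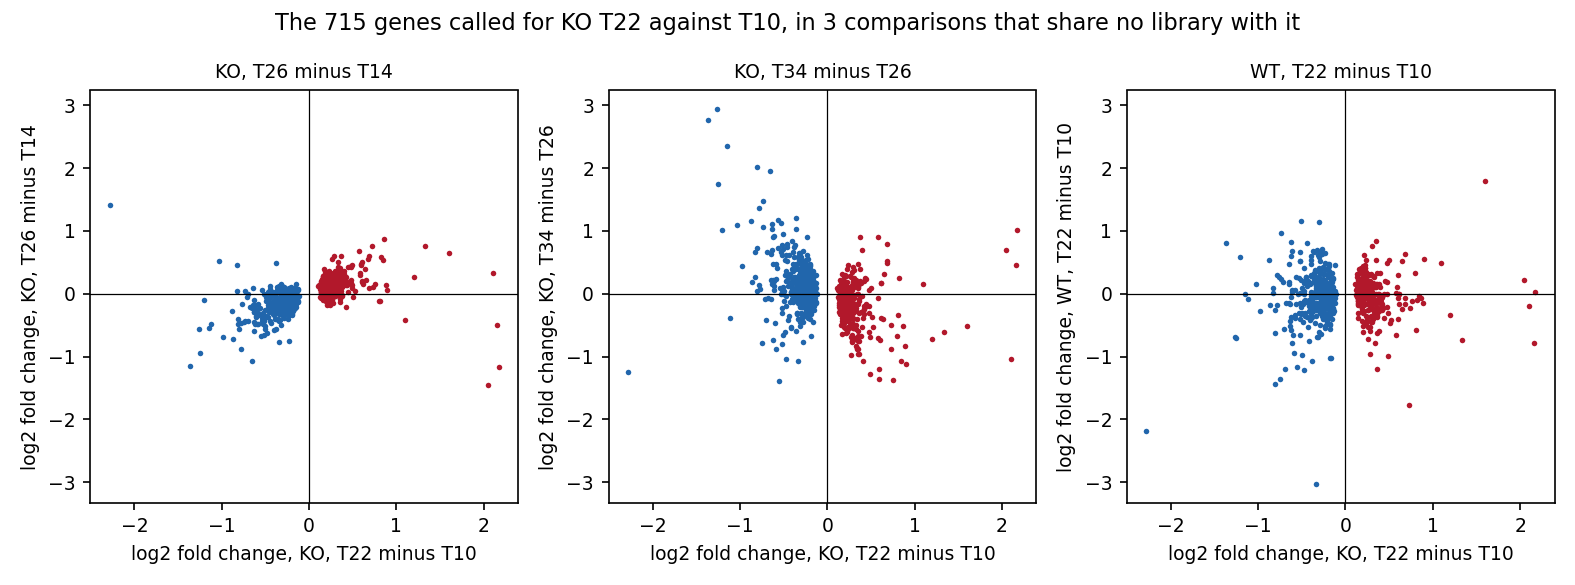
Each point is 1 of the 715 genes called for KO T22 against T10 (red higher, blue lower), with that log2 fold change on the x axis and the log2 fold change of KO T26 against T14, KO T34 against T26 or WT T22 against T10 on the y axis. Most genes keep their direction in the left panel (82.9%), 32.9% keep it in the middle panel, and 56.2% keep it in WT.

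The series asks how the deletion of Neat1 affects rhythmic expression, so the same interval was read in WT. Little more than 50% of the genes called in KO moved in the same direction in WT. Of the 318 genes called higher in KO, 171 (53.8%, against 50.6% of all genes tested) were higher at T22 in WT. Their median log2 fold change in WT was 0.03. Of the 397 called lower, 231 (58.2%, against 49.4% of all genes tested) were lower, with a median of -0.05. The correlation of the KO and WT changes was 0.09 over the 715 genes (Spearman 0.04) and 0.05 over the 13763 genes (Spearman 0.06). WT T22 against T10 was called for 1814 of 13776 genes in the fit of all 42 libraries, with 6.38% higher and 6.79% lower. Of the 715 genes, 107 were called in WT in the same direction as in KO and 91 in the opposite one. Among the genes called higher in KO, 11.6% were called higher in WT and 13.2% lower. Among those called lower, 17.6% were called lower in WT and 12.3% higher. These shares were above those of all genes in both directions. That comparison is not matched for level or spread. Genes called in KO were more often abundant ones, and the KO libraries entered the estimate of spread in both fits. In the fit of all 42 libraries KO T22 against T10 was called for 183 genes. With only the 12 libraries of both genotypes at T10 and T22, 4112 genes were called in WT and 864 in KO.

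The difference between the KO and WT changes was tested directly, as the interaction of genotype with T22 against T10 over all 42 libraries. The test called 888 genes (6.45%), with the more positive change in KO for 444 (3.22%) and in WT for 444 (3.22%). Among the 715 genes called in KO it was called for 189 (26.4%), 88 of those called higher and 101 of those called lower. This test and the choice of the 715 genes share the KO libraries, so that share is not independent of the choice. In 168 of the 189 the WT change had the opposite sign to the KO change. Choosing genes for a KO change and for a difference from WT favours opposite signs, so this count is a description. Of all 715 genes, 402 (56.2%) had the same sign in WT. WT T34 replicate 1 enters this fit through the estimate of spread, and its log2 CPM correlated at 0.919 and 0.935 with its replicates, against at least 0.991 for every other pair of WT replicates. Without it the test called 2193 genes (15.9%) and 327 of the 715 (45.7%). With the 12 libraries alone the counts were 2551 (18.5%) and 350 (49.0%). Over all genes it was 1527, 207 and 155 without replicate 1, 2 or 3 of both genotypes.

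The genes with the largest KO changes were mixed in this respect. The difference between genotypes was called for 6 of the 12 highest and for 5 of the 12 lowest, against 6.45% of all genes, but these genes were picked for large changes in KO libraries that the test shares. In WT, 2 of the 12 highest were called higher and 2 lower, and 2 of the 12 lowest were called lower and 1 higher, against 6.38% of all genes called higher and 6.79% lower. T26 against T14 was called in the same direction for 6 of the 12 highest and 3 of the 12 lowest, against 3.53% of all genes higher and 3.73% lower. From T26 to T34, 6 of the 12 highest were called lower and 5 higher, while 9 of the 12 lowest were called higher and 0 lower, against 26.3% of all genes in each direction.

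The labels give no batch, and a difference in handling between the cultures of T10 and T22 cannot be told apart from time. In bulk RNA fewer cells that hold a transcript and less of it per cell cannot be told apart either.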

How the data were processed

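Per the labels, total RNA of GH4C1 cells was sequenced as strand-specific paired reads. The authors deposited whole-number counts of reads per gene, with no normalization, for each library. Counting used featureCounts, per the submitters' processing notes. The aligner, genome build, annotation and strand setting are not given in the sources used here, so genes that overlap or have near-identical copies are uncertain.

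The main test was edgeR 4.0.16 (R 4.3.3), a quasi-likelihood F test with TMM scaling and 7 group means over the 21 KO libraries. The filter filterByExpr left 13763 of 13776 genes. The difference between KO and WT was fitted with 14 group means over 42 libraries. Benjamini-Hochberg adjustment ran over all genes tested, and genes under 0.05 were called. Alternatives were DESeq2 1.42.0, other scalings, filters and sets of libraries, a replicate block and leaving out libraries. Both fits were also run on simulated counts, and the outcome is not used here. Those counts were drawn independently with the spread estimated from these data. They therefore cannot show how the calls depend on single libraries. Log2 CPM used a prior count of 1. Named genes were to be the largest changes among called genes with a symbol, a mean of at least 2 CPM and groups that do not overlap. With 0 symbols matched, that condition was dropped, and the lists fixed by symbol and the sequences were not used. The comparison, lists and alternatives were chosen with earlier results of these data known.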

Additional observations from a re-analysis of the deposited data

Results flagged for a closer look

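The change from T10 to T22 differed between KO and WT for 888 genes by edgeR's test of the interaction, which means that the same interval gave unlike changes in the 2 genotypes. A difference in handling between the KO and WT cultures cannot be told apart from the genotype.

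ENSRNOG00000011078 stands out for the same reason. Its change was 2.30 higher in KO than in WT on the log2 scale (SE 0.54, adjusted p = 0.00598 by edgeR). All 3 KO libraries of T22 were above those of T10, while in WT the groups overlapped. The difference was 1.57 (adjusted p = 0.475) without replicate 2 of both genotypes and 2.08 (adjusted p = 0.175) without replicate 3.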

How the results depend on the processing

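The 14 results were recomputed into 229 alternative values. In 139 of these a gene kept its call, a count stayed within 1.5 times, or a share stayed inside its exact binomial 95% interval. That interval treats genes as independent, which they are not, and the alternatives reuse the same libraries. It served only to sort the values and does not measure their error. The causes of the other changes were not tested, except as stated. For KO T22 against T10 (715 called, 318 higher, 397 lower) the counts were 1384, 694 and 690 with only the 6 libraries, 1443, 719 and 724 with the KO libraries of T10 to T26, and 183, 70 and 113 with all 42. When edgeR tested for a change beyond 1.5-fold, a stricter question, it called 0, 0 and 0, with 65 genes at an unadjusted p under 0.05. With library totals 246 genes were lower. With replicates left out, the counts were 70 to 463, 23 to 226 and 47 to 237, the lowest without replicate 3 of all times, where 2 libraries per group remained. DESeq2 called 967. Of the 715 genes, 684 were among the 1384, 714 among the 1443 and 177 among the 183. For the difference between KO and WT (888) the counts were 2551 with 12 libraries and 2193 without WT T34 replicate 1, and 155 to 1527 with a replicate number left out. WT T22 against T10 (1814) was called for 4112 and 3717 genes in the same 2 settings, and for 606 to 2591 with a replicate number left out. The share of called genes that moved the same way in WT was 56.2%, and 47.2% to 58.5% with KO replicates left out. The WT change came from the fit of all 42 libraries throughout, so only the set of genes called in KO varied. The 47.2%, without replicate 2 of all KO times, was the 1 value that turned. The other shares kept their side of 50% in every setting that could be computed, with 79.9% to 91.4% for T14 to T26. The replicate numbers do not pair the samples by the labels. The correlations of deviations between T10 and T22 libraries of the same number were 0.09, 0.06 and 0.25. Between libraries of different numbers they were -0.20 to 0.13. T10 replicates 2 and 3 correlated best with the T22 replicate of their own number, and T10 replicate 1 with T22 replicate 2. Whether the numbers mark shared cultures was not tested. With the number as a replicate block, 795 genes were called for KO and 870 for the difference. The gene lists and their alternatives were not run, since no symbols matched. An adjusted p was not given by DESeq2 for ENSRNOG00000019736.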
